A study of Mus musculus with 5 samples.

Results

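Helper T cells of the mouse (Mus musculus) that had been activated overnight were set beside cells activated for 3 days, on the arrays of the series that share a dye direction. These are 2 of its 5 arrays: the only overnight array, and the day 3 array that also carries the activated RNA in Cy5. The comparison was chosen by the sample labels alone. Each array is of 2 channels and held total RNA of activated CD4+25- T cells against RNA of CD4+25- T cells that had not been activated. On both arrays used here the unactivated RNA was in channel 1 (Cy3) and the activated RNA in channel 2 (Cy5). Day 3 has a second array with the dyes swapped, and day 10 has a pair of arrays of the same kind. The labels of all groups name CD4+25- (CD4-positive, CD25-negative) T cells, and they name no genotype, strain or age. They do not say whether the activated cells were still CD25-negative. The sources used here do not say how the cells were activated and cultured, how many animals gave them, or whether the unactivated RNA was 1 extract on all arrays.

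The table holds 1 log ratio per array for 178 probes, of which 7 are for transfer RNAs and small nuclear RNAs and all others for microRNAs. Each array was centred on its median over the microRNA probes, and the day 3 value was taken off the overnight value. A difference of 1 on the log2 scale is 2-fold, and probes at or past it are called higher or lower overnight. There is 1 array a side, so these differences carry no replicate error and no test. Directions take Cy5 as the numerator of the deposited ratio, the likely reading, though no label states it; with Cy3 as the numerator they would all turn. Detection calls were not analysed here, so no probe is claimed to be above background.

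MicroRNAs are short RNAs that guide Argonaute proteins to messenger RNAs, mostly by pairing through the seed, the stretch near the 5′ end, and so lower the output of their targets. MicroRNAs that share a seed form a family with overlapping targets, and many are cut from a shared primary transcript. In T cells, miR-155 and the miR-17-92 cluster are known to be induced by antigen receptor signalling and to favour proliferation and effector differentiation, whereas miR-150, miR-181, miR-26 and let-7 are known as abundant microRNAs of resting or developing lymphocytes. RNA was taken from bulk cells, so fewer cells with a microRNA and less of it per cell cannot be told apart.

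The families that carry the comparison are shown by their mature sequences, 5′ to 3′, from RefSeq with GRCm38.p6, with the seed (bases 2 to 8) in capitals. Probes were paired with mature sequences through the number in the probe ID, or the annotation for 1org-34c, and 86 of 90 sequences looked up were matched. The miR-17 seed is shared by the 5 microRNAs shown first, measured by 6 probes, all of which were at least 2-fold higher overnight, and the miR-92 seed by the next pair.
miR-17-5p: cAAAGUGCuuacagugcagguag
miR-20a-5p: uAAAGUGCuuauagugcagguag
miR-106a-5p: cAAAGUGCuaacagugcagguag
miR-106b-5p: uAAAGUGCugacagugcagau
miR-93-5p: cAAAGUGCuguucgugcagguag
miR-92a-3p: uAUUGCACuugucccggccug
miR-25-3p: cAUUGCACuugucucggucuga

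Seeds of let-7, miR-181, miR-26 and miR-15/16 stand for the microRNAs that lay far below the day 3 median.
let-7b-5p: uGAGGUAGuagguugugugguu
let-7c-5p: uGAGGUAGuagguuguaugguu
let-7g-5p: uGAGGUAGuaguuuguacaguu
miR-181a-5p: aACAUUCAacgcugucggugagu
miR-181b-5p: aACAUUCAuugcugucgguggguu
miR-26a-5p: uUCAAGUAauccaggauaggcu
miR-26b-5p: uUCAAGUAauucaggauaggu
miR-16-5p: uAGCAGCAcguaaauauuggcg
miR-15b-5p: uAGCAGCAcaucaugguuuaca

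The last set are microRNAs that lay higher at day 3, among them miR-132 with miR-212 and miR-221 with miR-222, each pair with a seed in common.
miR-155-5p: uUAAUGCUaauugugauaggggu
miR-31-5p: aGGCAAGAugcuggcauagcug
miR-210-3p: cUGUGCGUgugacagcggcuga
miR-132-3p: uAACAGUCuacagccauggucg
miR-212-3p: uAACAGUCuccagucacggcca
miR-221-3p: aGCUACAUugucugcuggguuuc
miR-222-3p: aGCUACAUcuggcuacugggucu
miR-183-5p: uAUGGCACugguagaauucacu
miR-96-5p: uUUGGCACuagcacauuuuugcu

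Of the microRNA probes, 42 (24.6%) were at least 2-fold higher overnight than at day 3, 40 (23.4%) were at least 2-fold lower and 89 lay within 2-fold. Together 48.0% of the probes lay at or past 2-fold in either direction, so a single probe past it is not unusual. The leading higher probes were numbered as microRNAs of resting lymphocytes, let-7, miR-30 and the miR-17 clusters, and 8 of the 15 leading lower ones were on the list of microRNAs linked to activation, with 2org-210, 1org-183, miR-31 and miR-155 among them. The other 7 were 2org-224, 1org-292-as, 1org-34c, 2org-34, miR-301, 1org-127 and 1org-196. The values ran from -5.06 (2org-224) to 7.52 (1org-150) on the log2 scale, with a median of -0.039 over all microRNA probes.

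**Figure D1:**
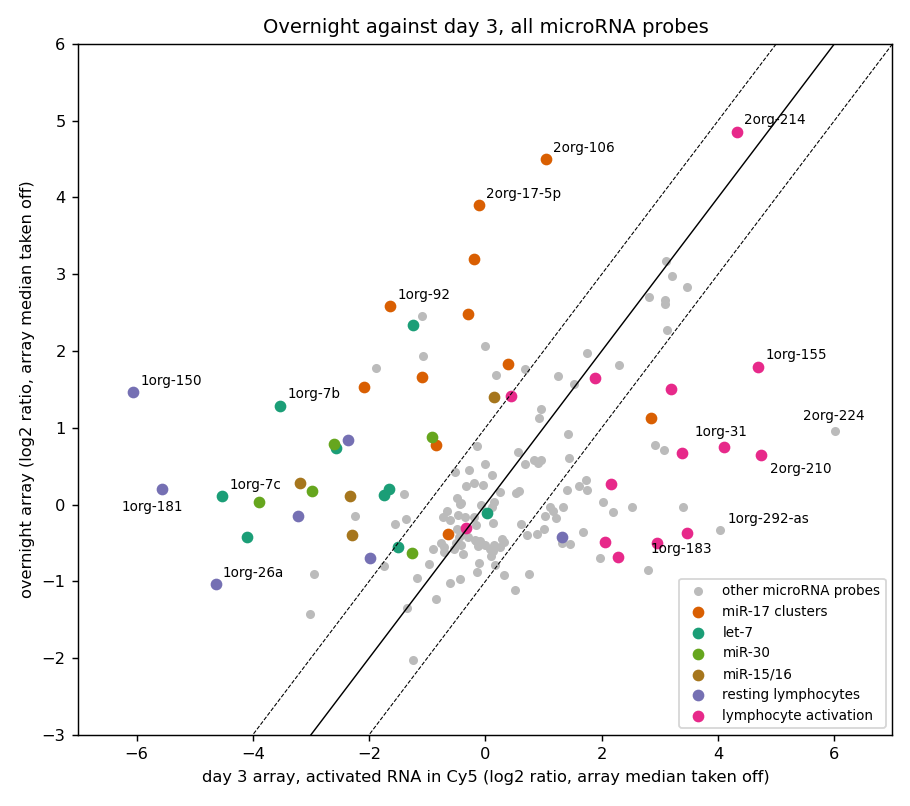
Each point is 1 microRNA probe, with its centred log2 ratio of activated over unactivated RNA at day 3 on the horizontal axis and overnight on the vertical axis; the solid line marks equal values, the dashed lines 2-fold, and colours the lists of probes. Probes of the miR-17, let-7, miR-30, miR-15/16 and resting lists lie mostly above the dashed band, and probes of the activation list mostly below it.

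The day 3 array had the wider spread. Its centred log2 ratios had a standard deviation across probes of 1.98, against 1.17 overnight. At day 3, 51 probes lay at least 1 above the array median and 37 at least 1 below it. Overnight there were 37 above and only 7 below. The probes higher overnight came from several kinds of pattern. In 20 of the 42 the overnight value lay within 1 of the median while the day 3 value lay at least 1 below it, as for probes 1org-181 and let-7g. Another 9 were above the median overnight and below it at day 3, and 8 were above it overnight and within 1 of it at day 3, as for 2org-17-5p and miR-20a. Of the rest, 2org-106 was at least 1 above the median on both arrays, and 2org-142* and 1org-26a at least 1 below it on both. Probes 1org-106b and 1org-30a were within 1 of it on both. Of the 40 lower probes, 32 lay within 1 of the median overnight and above it at day 3. Only miR-155, miR-18 and 1org-132 were at least 1 above the median on both arrays and still at least 2-fold lower overnight.

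Across the microRNA probes, which are not independent replicates, the centred values of the overnight and the same-dye day 3 array correlated at r = 0.27. The arrays share a dye direction, and with it the probes' dye effects. Against the day 3 array of the other dye the correlation was -0.09. The day 3 arrays correlated with each other at 0.66 once turned to activated over unactivated.

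Probe 1org-150 showed the largest difference of the table. It is numbered as miR-150, a microRNA of mature resting lymphocytes that restrains the transcription factor Myb. Its centred log2 ratio was 1.47 overnight, -6.06 and -6.05 on the day 3 arrays with activated RNA in Cy5 and in Cy3, and -0.82 and -0.86 on the day 10 arrays. The overnight array was thus the only one on which it lay above the median, and both day 3 arrays lay far below all others. The difference of 7.52 is a 184-fold higher ratio overnight. As deposited, without centring, the probe read -0.28 overnight and -5.86 at day 3, a difference of 5.58.

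Of the 7 probes on the list of resting lymphocyte microRNAs, 6 were at least 2-fold higher overnight and 1 was lower, with a median difference of 3.20. Their median log2 ratio was -0.15 overnight and -3.23 at day 3. Probe 1org-181, numbered as miR-181, which tunes the sensitivity of the T cell receptor during thymic development, read 0.20 overnight against -5.57 and -5.11 at day 3, a difference of 5.77. The seed was shared by 2org-181b, at 3.20, and 2org-181c, at 1.28. The value of 2org-181c did not stay past 2-fold: it was 0.42 with the other day 3 array and 0.51 with both arrays at the same spread. The miR-26 microRNAs, which lie within the spans of genes for small phosphatases of the CTDSP family and target Ezh2, gave 3.61 (1org-26a) and 3.08 (miR-26b). Probe 1org-26a was 1 of only 2 higher probes that lay at least 1 below the median on both arrays, at -1.03 overnight and -4.64 at day 3. The exception on the list was miR-139 (2org-139), 1.74 lower on the log2 scale, which read 1.32 on the Cy5 array of day 3 but -0.86 on the Cy3 array.

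The let-7 family, which is known to restrain growth and metabolism in lymphocytes, had 7 of 9 probes at least 2-fold higher overnight and none lower. Its median difference was 3.30, from a median log2 ratio of 0.12 overnight and -1.75 at day 3. The largest were let-7b and 1org-7c. let-7b read 1.29 overnight and -3.53 and -4.23 at day 3, a difference of 4.82. Probe 1org-7c read 0.11 overnight and -4.53 and -4.41 at day 3. The smallest belonged to let-7e (0.96) and miR-98 (-0.14), the members of the family nearest to no difference. On both day 3 arrays miR-98 lay close to the median, at 0.02 and -0.18. The passenger strand probe 1org-7d* read 1.78 overnight and -1.88 and -2.24 at day 3, and let-7d itself 2.34 overnight and -1.25 and -1.68, so both strands of this precursor were above the median overnight and below it on both day 3 arrays.

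The miR-30 and miR-15/16 families were higher overnight too. For miR-30, 4 of 5 probes were at least 2-fold higher, with a median difference of 3.17. Probe 1org-30b led at 3.93 (0.03 overnight, -3.90 at day 3), followed by 1org-30d at 3.39, and miR-30e was lowest at 0.64. All 4 probes with the miR-15/16 seed, a family that targets cyclins and Bcl2, were higher, with a median of 2.16. Probe 1org-16 gave 3.48, from 0.29 overnight and -3.19 at day 3, and miR-195 gave 1.25, the lowest of the family. miR-15b and a copy of miR-16 lie side by side in the genome, at chr3:69009775-69009796 and chr3:69009918-69009939 on the plus strand, within the span of Smc4. The other copy of miR-16 lies within the span of Dleu2 on chromosome 14.

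The miR-17 clusters differed from these families in where their overnight values lay. These clusters, the miR-17-92 cluster on chromosome 14 and its paralogs, are targets of Myc and E2F and dampen Bim. Of 11 probes, 9 were at least 2-fold higher overnight and 1 was lower, with a median difference of 2.77. Their median log2 ratio was 1.83 overnight, and 9 of the 11 lay at least 1 above the array median there, against 37 of all microRNA probes. At day 3 the median was -0.29, and at day 10 on the array of the same dye it was 1.12. The overnight median of this list was thus above its medians on these later arrays, while for let-7, miR-30 and the resting list the overnight medians lay near the array median. Not every probe followed the list's median. miR-18 was higher on the Cy5 array of day 3 and on both day 10 arrays (2.77 and 1.75, against 1.12 overnight). Probe 1org-106b was higher on the day 10 arrays.

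Within the miR-17-92 cluster, 2org-17-5p read 3.90 overnight, -0.12 and 0.19 at day 3, then 1.32 and 0.89 at day 10. miR-20a read 3.20 overnight and -0.20 and -1.48 at day 3. Probe 1org-92 read 2.58 overnight and -1.63 and -1.96 at day 3. In all 3 the overnight value was the highest of the 5 arrays. The differences of 4.02, 3.41 and 4.21 are 16.2-fold, 10.6-fold and 18.5-fold. miR-17-5p lies at chr14:115043684-115043706, miR-20a at chr14:115044183-115044205 and a copy of miR-92a at chr14:115044476-115044496, all on the plus strand. miR-19a was also highest overnight, at 1.83 against 0.38 and 0.023 at day 3, with a smaller difference of 1.44. The opposite arm probe 2org-17-3p lay within 2-fold, at 0.25.

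miR-18 (1org-18) was the member in the opposite direction. It read 1.12 overnight, 2.85 on the Cy5 array of day 3 and 0.64 on the Cy3 array, so it was 1.73 lower overnight by the first and 0.48 higher by the second. Its place relative to day 3 thus turned with the day 3 array used. Its sequence lies between those of miR-17 and miR-19a, at chr14:115043867-115043889.

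In the paralog cluster on chromosome 5, within the span of Mcm7, miR-25, miR-93 and probe 1org-106b gave 3.62, 2.74 and 1.63. miR-25 read 1.53 overnight and -2.09 and -2.81 at day 3, and miR-93 read 1.66 overnight and -1.09 and -1.64 at day 3. Both were above the median overnight and below it on both day 3 arrays. miR-106 was measured by a probe of each probe set. Probe 2org-106 read 4.50 overnight, the highest microRNA probe of that array after 2org-214, and 1.04 and -0.28 at day 3. Probe 1org-106a read 2.48 overnight and -0.29 and -1.46 at day 3. Their differences of 3.46 and 2.77 had the same direction.

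**Figure D2:**
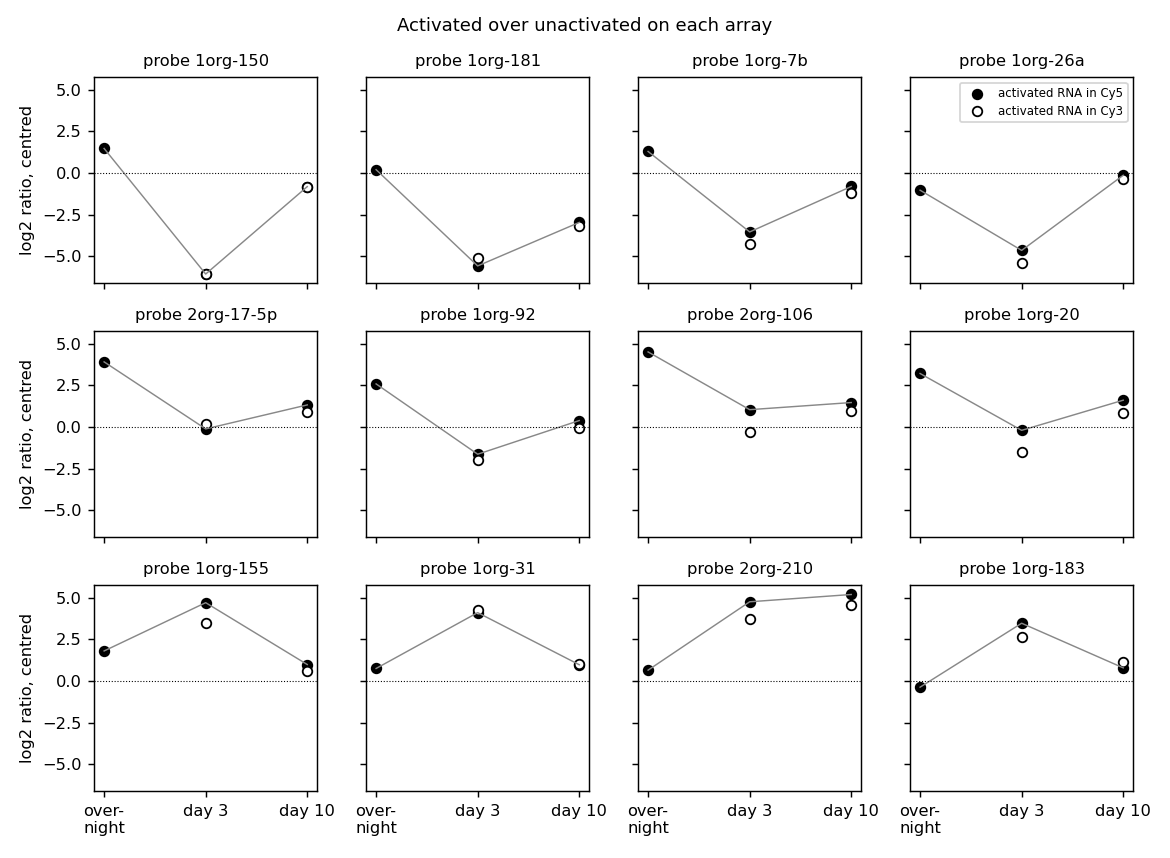
Each panel shows 1 probe, with the centred log2 ratio of activated over unactivated RNA on the vertical axis for the overnight, day 3 and day 10 arrays; filled points have the activated RNA in Cy5 and are joined, open points have it in Cy3. The top row falls to its lowest value at day 3 (1org-150 at -6.06), the middle row is highest overnight (2org-17-5p at 3.90), and the bottom row is higher at day 3 than overnight (2org-210 at 4.74 against 0.65).

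In the opposite direction, the list of microRNAs linked to activation had 10 of its 14 probes at least 2-fold lower overnight than at day 3 and none higher. Among all microRNA probes 23.4% were lower and 24.6% higher. The median difference was -2.63. The list's median log2 ratio was 0.66 overnight and 3.07 at day 3. At day 3, 12 of the 14 lay at least 1 above the array median, against 5 overnight. Of all microRNA probes, 51 lay that high at day 3 and 37 overnight. The list was drawn up with earlier results of these arrays known, so its direction is not independent evidence. None of the 10 lower probes was below the array median by 1 or more overnight. Only 7 of all microRNA probes lay that low overnight, so this count does not set the list apart.

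miR-155, which limits inhibitors of cytokine signalling and supports effector and germinal centre responses, read 1.80 overnight, 4.69 and 3.45 at day 3, then 0.98 and 0.61 at day 10. It was above the median on every array, with the overnight value between those of day 10 and day 3. The difference was -2.89, a 7.43-fold higher ratio at day 3. It was -1.65 with the other day 3 array and, with both arrays brought to the same spread, -0.998, just under 2-fold. As deposited it read 0.05 overnight, close to equal channels, and 4.89 at day 3. It lies at chr16:84714143-84714165 on the plus strand, within the span of Mir155hg, the gene known as Bic.

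Probe 2org-210, numbered as miR-210, a target of hypoxia-inducible factors, read 0.65 overnight, 4.74 and 3.70 at day 3, then 5.18 and 4.54 at day 10. The overnight array stood below the other 4. The difference was -4.10, or 17.1-fold. miR-31, which is known in T cells for its effect on interleukin-2 production, read 0.75 overnight, 4.10 and 4.25 at day 3, then 0.97 and 1.00 at day 10. It was high on both day 3 arrays alone, and the difference was -3.35.

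Probe 1org-183 and miR-96, which come from a single cluster on chromosome 6 known for its role in sensory cells and, in T cells, for repression of Foxo1, gave -3.83 and -3.45. Probe 1org-183 read -0.37 overnight and 3.46 and 2.65 at day 3, and miR-96 read -0.50 overnight and 2.94 and 2.30 at day 3. miR-182, the third member of the cluster, did not follow them, with -0.31 overnight and -0.33 and -0.69 at day 3. The other probe with this number, 2org-182*, gave a difference of -0.41.

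The pairs with a seed in common were lower together. miR-212 (2org-212) and probe 1org-132, neighbours on chromosome 11 and targets of CREB, gave -2.71 and -1.69. Probe 1org-132 was already at 1.51 overnight, while miR-212 read 0.67. With both arrays at the same spread the difference of 1org-132 was only -0.27. Probes 2org-222 and 2org-221, neighbours on the X chromosome that target the cell cycle inhibitor p27, gave -2.96 and -2.55. They read -0.68 and -0.48 overnight, 2.28 and 2.06 on the Cy5 array of day 3, and 3.19 and 2.99 on the Cy5 array of day 10, so the overnight values were the lowest of the series for both.

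Of the 4 probes of the miR-34 family, whose members are p53 targets, 2 were past 2-fold, and both were lowest overnight and highest at day 10. Probe 1org-34c, annotated as miR-34a, read -0.85 overnight, 2.80 and 1.72 at day 3, then 4.72 and 4.68 at day 10. Probe 2org-34 read -0.03 overnight, 3.40 and 1.88 at day 3, then 4.74 and 4.53 at day 10. Their differences were -3.65 and -3.43. Probe 1org-34a, annotated as miR-34c, differed by -0.74 and probe 1org-34b by -0.80, and neither was highest at day 10. For 1org-34a and 1org-34c the number and the annotation point to different members of the family, and the annotation was used.

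Of the activation list, 4 probes were within 2-fold. Probe 2org-214 had the highest log2 ratio of the overnight array, 4.86, and was 4.33 and 3.98 at day 3, so it was already high overnight. At day 10 it read -0.66 and -1.94. miR-21 read 1.65 overnight and 1.88 and 1.39 at day 3, a difference of -0.23. Probe 1org-146, numbered as the feedback inhibitor miR-146 of NF-κB signalling, read 1.41 overnight and 0.44 and -0.65 at day 3. Its difference of 0.98 lay just under the threshold, next to 1org-103 just inside it at 1.08. On the lower side, probe 1org-300 lay just inside at -1.11 and 1org-208 just outside at -0.96.

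**Figure D3:**
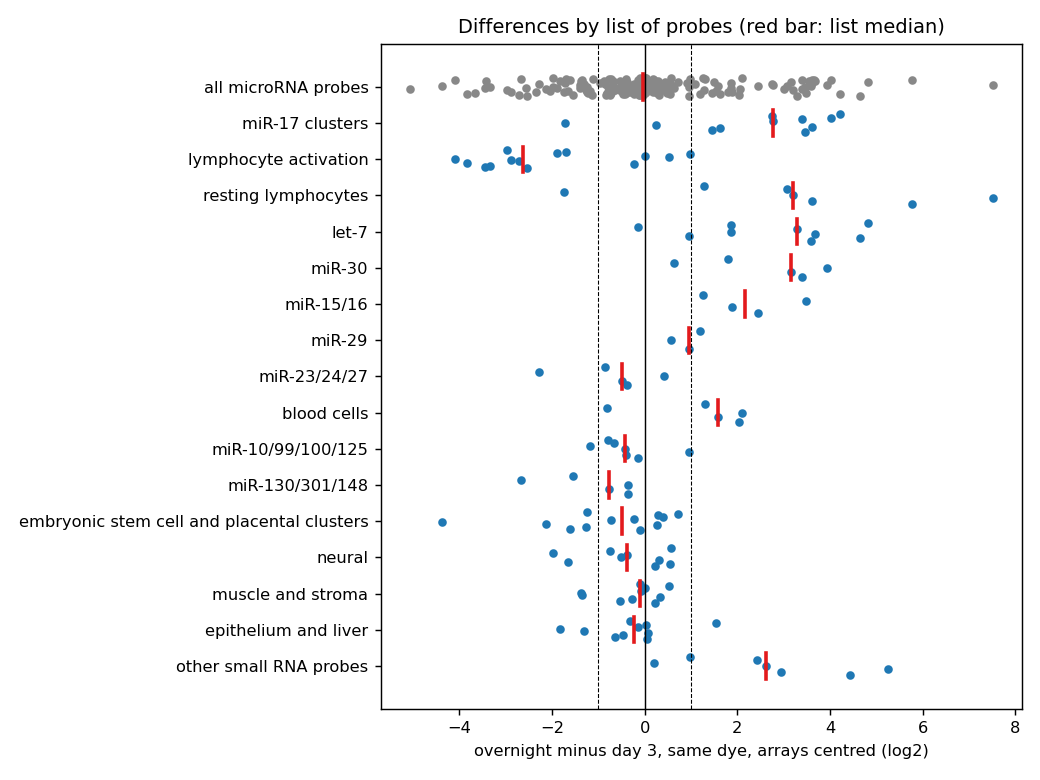
Each blue point is a probe of a list, each grey point 1 of all microRNA probes, and the red bar the median; the horizontal axis is the overnight minus day 3 difference of centred log2 ratios, with dashed lines at 2-fold. The list medians run from -2.63 (lymphocyte activation) to 3.30 (let-7), against -0.039 over all microRNA probes.

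The remaining families stood nearer to the median of all probes. In the miR-23/24/27 clusters, 4 of 5 probes lay within 2-fold and 1org-27b was lower (-2.28, but -0.14 with the other day 3 array), with a median of -0.49 that turned to 0.56 with the other day 3 array; the overnight and day 3 medians of 1.67 and 2.19 were both high. For miR-29, which targets T-bet and interferon-gamma, 1 of 3 probes was higher, miR-29a at 1.19, with a median of 0.96. In the group of miR-130, miR-148, miR-152 and miR-301 2 of 5 were lower, against 23.4% of all microRNA probes. The lowest was miR-301 (-2.67), which read -0.70 overnight and 1.98 and 1.44 at day 3. The other, 1org-152 (-1.56), was 0.315 with the other day 3 array. Among the probes for miR-10, miR-99, miR-100 and miR-125, 1 of 7 was lower and none higher, with a median of -0.42. The lower probe was miR-99a (-1.18), which was 0.16 with the other day 3 array. Outside the lists, 2org-321, at 2.45 overnight and -1.10 at day 3, was 3.55 higher overnight, and 1org-127, of the imprinted Dlk1-Dio3 region, was lower (-2.56 by the Cy5 array of day 3 and -0.43 by the other).

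Only microRNAs and a few other small RNAs are on the array, so CD4 and CD25 could not be checked. Of the microRNAs found across blood cells, the 3 probes numbered as miR-142 and the probe 2org-223 were 1.30 to 2.10 higher overnight, and the list's median of 1.59 was -0.36 as deposited. Probe 1org-142-s read -0.14 overnight and -2.25 and -2.22 at day 3. Probe 2org-223, a myeloid microRNA, read -0.26 overnight and -1.56 and -0.54 at day 3. Its difference of 1.30 was only 0.28 with the other day 3 array and 0.90 with the dye effect taken from day 10. With both arrays at the same spread, 2org-223 (0.82), 1org-142-as (0.96) and 2org-142* (0.25) fell under 2-fold, and 1org-142-s stayed past it (1.51). The erythroid miR-144 lay at -0.48 overnight and 0.33 at day 3, a difference of -0.81. Probe lists of other tissues held few differences in the higher direction: none of 12 embryonic stem cell and placental probes, none of 9 neural, none of 10 muscle and stroma and 1 of 10 epithelium and liver. Lower were 5, 2, 2 and 2 of them. Over all microRNA probes 24.6% were higher and 23.4% lower. Of these lower probes, 1org-291-as, 1org-199-s, 1org-199-as, miR-203 and 2org-215 turned positive with the other day 3 array, and the rest stayed negative. The medians of these tissue lists lay between -0.48 and -0.10. With the other day 3 array the epithelium and liver median was 0.85. Whether other cell types contributed to any difference was not tested.

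Of the 7 probes for other small RNAs, 5 were at least 2-fold higher overnight and none was lower, with a median of 2.61. The U6 small nuclear RNA probe read 2.11 overnight and -3.14 and -2.89 at day 3, and the histidine transfer RNA probe 0.55 overnight and -3.89 and -5.02 at day 3. These are RNAs made by RNA polymerase III in every cell, and they moved with the same sign as the let-7, miR-30 and resting list probes. Their part in those differences was not tested.

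Grouped by seed, the 86 probes matched to a mature sequence held 47 seeds, and 20 of these were shared by at least 2 probes. In 4 of the 20 all probes were at least 2-fold higher overnight: the miR-17, miR-26, miR-181 and miR-15/16 seeds. In 2 of the 20 all were at least 2-fold lower, that of miR-132 and miR-212, and that of miR-221 and miR-222. No shared seed had probes past 2-fold in both directions. These counts are for the same-dye difference, and the miR-181 seed was no longer all past 2-fold with the other day 3 array. For the 6 probes of the miR-17 seed the differences ran from 1.63 to 4.02, with a median of 3.09. The miR-92 seed had 2 of 3 probes higher, with miR-32 at -0.68. Probes of a family can hybridise with each other's targets, so they are not independent.

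Taking 1 dye direction on both sides drops a probe's dye effect only where that effect is stable. The dye effect, taken as the distance of the Cy5 array from the mean of its pair, had a correlation of 0.76 between day 3 and day 10 across the microRNA probes. For 161 probes these effects were less than 1 apart on the log2 scale, and for 10 they were 1 or more apart. All 42 higher probes were among the 161, but 7 of the 40 lower probes were among the 10, including 2org-224, 1org-292-as, 1org-127 and 1org-196. Probe 2org-224 read 0.96 overnight, 6.02 on the Cy5 array of day 3 and -1.82 on the Cy3 array. Its difference, the most negative of the table at -5.06, was 2.77 against the other day 3 array. Probe 1org-292-as read -0.34, 4.04 and -0.11 on the same 3 arrays and gave -4.38 and -0.23. The first place among the lower probes therefore belongs to a probe whose day 3 arrays disagree, and among probes with stable dye effects it was 2org-210.

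Against the day 3 array of the opposite dye, 56 probes (32.7%) were at least 2-fold higher overnight and 39 (22.8%) at least 2-fold lower. All 42 higher probes kept their sign there, as did 26 of the 40 lower ones, and 14 turned. Of these, 39 higher and 19 lower probes stayed past 2-fold. The overnight array is the same, so this difference departs from the same-dye one only through the probe's day 3 dye effect. That effect had a median of 0.174 and ran from -1.15 to 3.92, so higher probes could hardly turn and lower ones could more readily. The miR-200 probes show what the shared dye removes: 1org-200b read 2.83 overnight, 3.47 on the Cy5 array of day 3 and -3.73 on the Cy3 array, which gives -0.63 with the same dye and 6.57 with the opposite one. Probes 1org-200a and 2org-200c gave -0.48 and 0.06 with the same dye and 6.49 and 6.65 with the opposite one. The dye effects of 2org-200c were 1 or more apart, at 3.30 for day 3 and 2.11 for day 10. With its dye effect taken from the day 10 pair, the difference of 2org-200c was 1.25, past 2-fold. With each probe's dye effect taken from the day 10 pair and the day 3 pair averaged, 43 (25.1%) were higher and 32 (18.7%) lower. Past 2-fold in the same-dye difference, the opposite-dye difference and both dye corrections were 39 higher and 17 lower probes. The 17 include miR-155, miR-31, 2org-210, 1org-183, miR-96, 1org-132, miR-212, 2org-221 and 2org-222. All of these settings reuse the overnight array, so neither count is independent evidence.

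**Figure D4:**
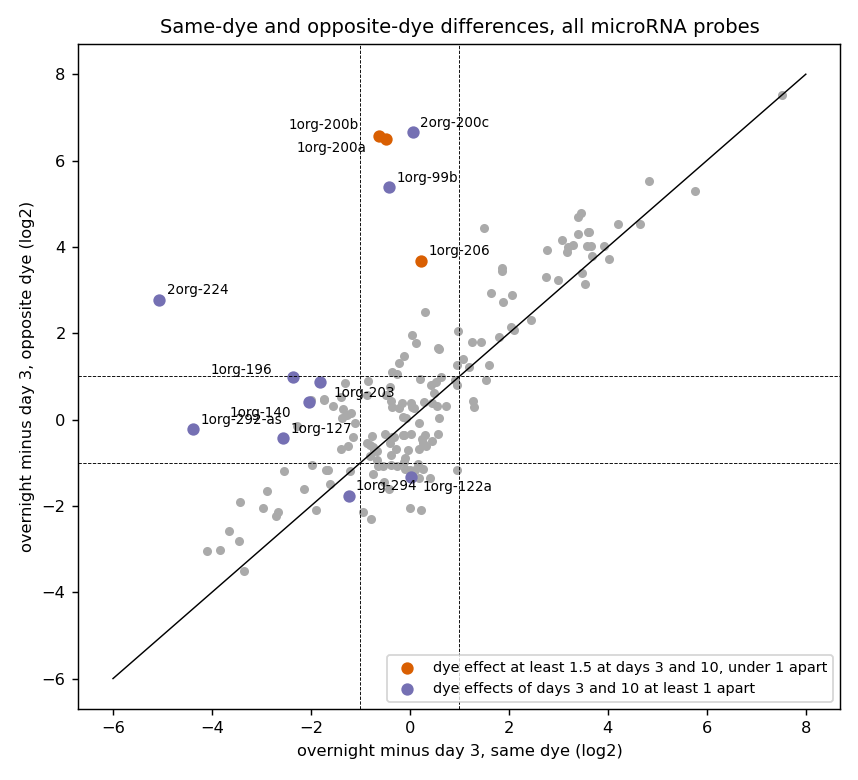
Each point is a microRNA probe, with the overnight minus day 3 difference (log2) against the same-dye day 3 array on the horizontal axis and against the opposite-dye array on the vertical axis; purple marks probes whose dye effects differ by 1 or more between days 3 and 10, orange those with a large dye effect at both. Probes 1org-200b and 1org-200a lie near 0 on the horizontal axis and above 6 on the vertical one, and 2org-224 lies at -5.06 and 2.77.

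The centring sets the split between higher and lower. The overnight median of the deposited log2 ratios was -1.75 and that of the same-dye day 3 array 0.20, so centring adds 1.95 to every difference. As deposited, 22 probes (12.9%) were at least 2-fold higher overnight and 126 (73.7%) at least 2-fold lower. All 22 are among the 42, and all 40 lower probes are among the 126. Of the 42 higher probes, 14 had a negative difference as deposited. They include miR-15a, miR-195, 1org-7f, let-7i, 1org-106b and miR-19a. As deposited, only 7 probes lay at least 2-fold above unactivated RNA overnight. The source of this offset was not tested. The miR-17 cluster, activation and let-7 list medians as deposited were 0.82, -4.58 and 1.35.

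**Figure D5:**
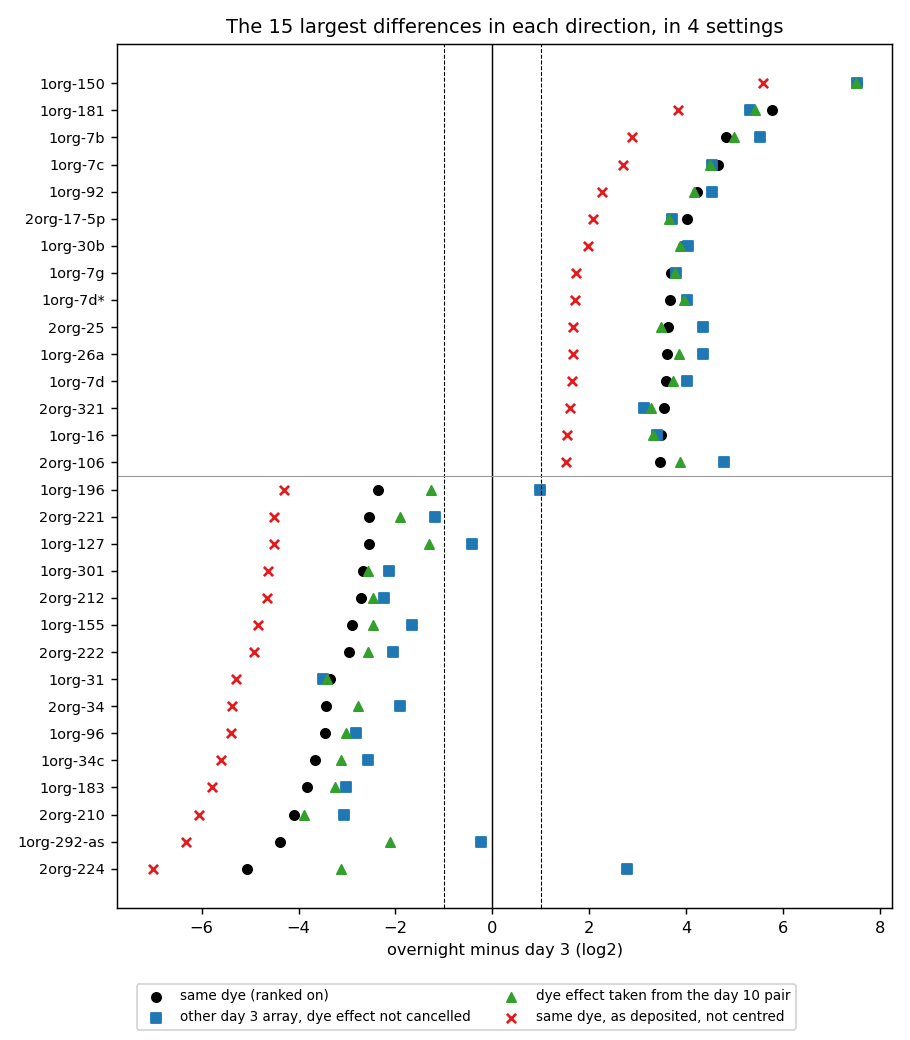
For the 15 largest differences in each direction, the overnight minus day 3 difference (log2, horizontal axis) is shown for the same-dye arrays, the other day 3 array, the dye effect taken from day 10, and the values as deposited; dashed lines mark 2-fold. The higher probes stay above 1 in all 4, and 2org-224 and 1org-196 lie above 0 with the other day 3 array.

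A fit with limma over all 5 arrays had a term for each time and for the dye. Its error came only from the gap between the dye effects of the day 3 and day 10 pairs. The fit assumes that the lone overnight array varies by as much. It called 34 microRNA probes (19.9%) higher overnight and 21 (12.3%) lower at a Benjamini-Hochberg adjusted p of 0.05, and all of these were among the 42 and the 40. Probe 1org-150 had a fitted difference of 7.51 (SE 0.72), 2org-210 of -4.00 and miR-155 of -2.68. The most negative fitted difference, -4.09, was that of 2org-224, whose same-dye difference turned to 2.77 with the other day 3 array. The lower calls also held 1org-292-as, 1org-127 and 1org-196, whose dye effects at day 3 and day 10 were 1 or more apart. 1org-132 and miR-18 did not pass (limma adjusted p = 0.11 and 0.13). The fit rests on 1 residual degree of freedom per probe with the variance pooled over probes, so every probe has the same SE, and without pooling it called 0 probes in each direction (17 higher and 3 lower at an unadjusted p under 0.05). The p-values therefore measure how far the dye effect changes between the pairs. They do not measure the spread between days or cell samples, and the arrays of a dye pair may hold the same extracts. The fitted differences reuse the overnight and day 3 arrays by which the 42 and the 40 were picked. That overlap was therefore close to fixed and is not independent evidence. With a lone overnight array, the calls cannot test whether overnight cells differ from day 3 cells.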

How the data were processed

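Per the labels, total RNA of activated and unactivated cells was hybridised to arrays of 2 channels. The authors deposited 1 log ratio per probe and array, read here as log2; no source used here states the log base, numerator, scanner, background correction or normalization, and scanner signals were not analysed here. Ratios of arrays with activated RNA in Cy3 were multiplied by -1, and each array was centred on its median over the 171 microRNA probes. The number of arrays limits the precision. Values were computed with Python 3.11.15, pandas 2.3.3 and numpy 2.4.6, and the fit with limma 3.58.1 in R 4.3.3 (lmFit, eBayes, 2-sided, Benjamini-Hochberg over 171 probes), tested on simulated data first. The 7 other small RNA probes were kept out of counts and fit.

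GEO's platform annotation gave 1 gene for 61 probes, several for 1 and none for 116, and 50 matched a current mouse symbol. Annotated probes are named by microRNA, the rest by probe ID; the list of each probe follows its number. Named are the 15 largest differences in each direction, members of each list, probes with the same number, and miR-155 and 1org-150 on every array; 2org-214, 1org-200a, 1org-200b and 2org-200c, miR-182 and miR-32 beyond that, and other members shown where a result turns on them, were chosen after their values were seen. The members and lists were chosen with earlier results of these data known. Probe 2org-214 is on 2 lists. Alternatives were the deposited values, other centring and scale, the other day 3 array, dye corrections, a threshold of 1.5, annotated probes alone and, chosen after seeing the data, probes with dye effects under 1 apart.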

Additional observations from a re-analysis of the deposited data

Results flagged for a closer look

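Among the microRNA probes, 8 lay at least 1 above the array median overnight and at least 1 below it on both day 3 arrays: 1org-150, let-7b, 1org-92, 1org-7d*, miR-25, let-7d, 1org-191 and miR-93. No probe showed the opposite pattern. As deposited, 5 probes were higher than unactivated RNA overnight and lower on both day 3 arrays (1org-92, 1org-7d*, let-7d, miR-20a and 1org-106a), and 82 were lower overnight and higher on both day 3 arrays. These differences between times were not tested in themselves, and the count of 82 moves with the array medians of -1.75 overnight and 0.20 and 1.42 at day 3.

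Outside the microRNA probes, the U6 small nuclear RNA probe was 5.25 higher overnight than at day 3 on the log2 scale and the histidine transfer RNA probe 4.44 higher, each with 1 array a side and no test.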

How the results depend on the processing

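The rule of 1 array a side leaves no replicate error, and the log base, numerator and background are unknown. Counts of higher and lower probes kept within 1.5 times of 42 and 40 except as deposited, where they were 22 and 126. The members changed more than the counts on the lower side. Of the 40 lower probes, 19 stayed past 2-fold with the other day 3 array, 24 with the day 3 pair mean and 27 with the day 10 dye effect. Of the 42 higher probes, 39, 40 and 40 stayed in the same settings. Across 30 named probes and 7 alternatives each, 208 of 210 values kept their direction. 2org-224 (2.77) and 1org-196 (0.98) turned with the other day 3 array. The 30 were picked as the largest differences and the alternatives reuse the same arrays, so most signs could hardly turn. In size, 119 values stayed within 0.516 of the same-dye difference, the SD of the gap between the dye effects, and 89 moved further without turning. Of all 40 lower probes, 14 turned with the other day 3 array.

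List medians moved as follows. As deposited they were 0.82 (miR-17 clusters), -4.58 (activation), 1.25 (resting), 1.35 (let-7), 1.22 (miR-30), 0.22 (miR-15/16), -2.43 (miR-23/24/27) and -0.36 (blood cells, turned), and every other list median likewise fell by 1.95. With arrays at the same scale they were 3.80, -1.44, 2.25, 2.53 and 2.55 for the first 5, 0.86 for miR-23/24/27 and 0.82 for blood cells. With the other day 3 array they were 3.71 (miR-17 clusters), -1.86 (activation), 4.17 (resting), 3.88 (miR-30), -1.04 (neural) and 0.56 (miR-23/24/27), and with the day 3 pair mean 3.35 (miR-17 clusters) and 0.0325 (miR-23/24/27). Annotated probes alone gave 0.67 (resting), 2.72 (let-7), 0.64 (miR-30), -0.81 (blood cells), -2.67 (the miR-130, miR-148 and miR-301 list) and -0.88 (epithelium and liver). The miR-23/24/27 median, -0.49 in the same-dye comparison, thus turned in 3 settings, and miR-29 (-0.99) turned as deposited. Medians near 0 turned for 3 tissue lists: embryonic and placental (0.26, annotated alone), muscle and stroma (0.0243 with the day 10 dye effect, 0.0595 annotated alone) and epithelium and liver (0.15 at the same scale and with the pair mean, 0.85 with the other day 3 array). The cause was not tested.

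In the limma fit the calls were 34 higher and 21 lower. They were 5 and 112 as deposited, 25 and 8 with no dye term, 29 and 10 at the same scale, and 0 and 0 without moderation. Leaving out each day 3 or day 10 array in turn, without the dye term, limma called 0 in each direction, with 29 to 38 higher and 9 to 23 lower at an unadjusted p under 0.05. With the dye term no residual degree of freedom was left, and without the overnight array there is no comparison. No paired analysis was possible because the overnight group has 1 array and shares fewer than 2 numbers with day 3.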
